A study of Mus musculus with 2 samples.

Results

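The genes described here are 34 mouse genes of glucose use and of the response to low oxygen, read in macrophages bred to lack 3 related microRNA clusters. They were chosen by symbol from 16218 named genes of the deposited table, and each of the 34 had an entry. Of these, 20 encode glucose uptake, glycolytic enzymes and lactate export, 13 are targets of hypoxia-inducible factor (HIF) outside glycolysis, and 1 is Hif1a itself. The study compared polyadenylated RNA from 1 library of each genotype. The TKO library came from bone marrow-derived macrophages of C57BL/6J mice. They carried mir-106a~363-/- as well as mir-106b~25-/- in all cells, together with the conditional allele mir-17~92flox/flox and the recombinase gene Lyz2-Cre. The WT library came from macrophages of the same strain with Lyz2-Cre only, so both groups carried the recombinase. Both had grown for 5 days in medium that held 10% L929 supernatant, which supplies macrophage colony-stimulating factor, beside 10% fetal bovine serum, and had been given 10 ng/ml lipopolysaccharide (LPS) for 3 h. The Lyz2 promoter is active in myeloid cells, so mir-17~92 is removed only where it has been active, whereas the other clusters are absent from every cell. The labels give neither age, sex nor the number of animals, and no library without LPS was analysed here. With 1 library per genotype no difference has a replicate check, no test was possible, and "higher" or "lower" describes these 2 libraries.

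Glycolysis breaks glucose down to pyruvate in the cytosol and needs no oxygen. Macrophages given LPS are known to raise glucose uptake and lactate release, and to stabilise HIF-1 alpha, the oxygen-regulated transcription factor that acts on most glycolytic genes. When oxygen is present, prolyl hydroxylases of the EGLN family mark HIF-1 alpha for destruction. Its other targets include mitophagy receptors, angiogenic factors, collagen-modifying enzymes and the hydroxylases themselves, which act as feedback.

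Total counts were 10836855 in the TKO library and 10764519 in the WT library. A count below is the authors' estimated count rounded to a whole number, CPM is the count per 1000000 counts of its library, and FPKM is the authors' value per length and depth. Ratios are TKO over WT from CPM, each with a 95% exact (Clopper-Pearson) interval that covers counting error only. A gene counts as measured where its 2 libraries average 1 CPM or more, as 11662 did. Cell type markers checked the label. Of 12 macrophage markers all 12 were measured, with a summed level of 11157 CPM in TKO and 10408 CPM in WT, led by Csf1r, Ctss and Cd14. Of 16 fibroblast and stromal markers 15 were measured, none was at 0 in either library, and their sum was 273 CPM in TKO and 691 CPM in WT. In that list 12 genes were at least 1.5-fold lower in TKO, with Col1a1 at 550 counts in TKO and 2055 in WT. The other 3 measured genes could not be told from equality. These were Pdgfrb (510 counts in TKO, 478 in WT), Thy1 (39 counts in TKO, 33 in WT) and Pdgfra (30 counts in TKO, 32 in WT). The summed markers of neutrophils (40.05 CPM in TKO, 37.8 CPM in WT), T and NK cells (9.32 CPM in TKO, 11.9 CPM in WT), B cells (12.6 CPM in TKO, 9.94 CPM in WT) and the erythroid and megakaryocyte lines (28.6 CPM in TKO, 26.6 CPM in WT) were low in both libraries. By the rule given below, S100a9 in the neutrophil list (8 counts in TKO, 21 in WT) and Lck in the T and NK cell list (10 counts in TKO, 32 in WT) were called lower. The 9 measured genes of the LPS response summed to 11436 CPM in TKO and 13478 CPM in WT, 1.18-fold lower (1.17 to 1.19). Of these, 6 were lower and 3 higher beyond counting error and 0 were called. Ptgs2 and Cxcl10 were just under the call at 1.49-fold lower each. The 3 higher ones were Il6 (1.34-fold, 2252 counts in TKO, 1675 in WT), Tnf (1.11-fold) and Il1b (1.035-fold). Most of the gap between the sums lay in Cxcl10 (2390 CPM in TKO, 3552 CPM in WT) and Ptgs2 (1330 CPM in TKO, 1980 CPM in WT). The part of the LPS response in the values below was not tested. The dendritic cell list stood at 203 CPM in TKO and 38.3 CPM in WT, most of it from Itgax in both (2019 counts in TKO, 291 in WT), and H2-DMb2 of that list was also called higher (39 counts in TKO, 3 in WT). In RNA from a mixed culture, fewer cells of a type and less RNA per cell cannot be told apart. The part of stromal RNA in the values below was not tested.

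The deleted clusters encode microRNAs of 4 seed groups, shown because they are the part of the genome that the genotypes were built to differ in. The capitals mark the seed, bases 2 to 8, in RefSeq sequences of GRCm38.p6. The first is shared by 6 of the deleted microRNAs, the second by 2, the third by 2 and the last by 3.
miR-17-5p: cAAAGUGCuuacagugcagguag
miR-18a-5p: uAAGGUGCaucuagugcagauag
miR-19a-3p: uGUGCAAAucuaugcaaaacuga
miR-25-3p: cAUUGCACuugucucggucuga
Matches to these seeds were looked for in the longest annotated 3' UTR of each gene (GENCODE M21, GRCm38). At least 1 match was found in 12 of the 34 genes, a share of 35.3%, against 34.3% of 10874 measured genes with a 3' UTR. Of 11 measured genes with a match, 10 had a log2 ratio below 0 and the median was −0.49. Of 22 without a match, 19 were below 0 and the median was −0.24. Over all measured genes the medians were −0.01 with a match and −0.06 without. The order was not the same for each seed: for miR-25 the median was −0.16 over 2 measured genes with a match and −0.27 over 31 without. Of the 2 genes that were higher beyond counting error, Pfkp holds a miR-17 match and Hk3 holds none. Shown are the sites of the 3 genes in the set that were at least 1.5-fold lower and hold a match, Pfkfb3, Egln1 and Bnip3, of Pfkp as a higher gene with a match, and of Hif1a, the regulator of the others. The 7 matching bases are in capitals. The pair in Pfkfb3 overlaps (minus strand, chr2:11473679-11473708 and chr2:11473682-11473711). The pair in Egln1 (minus strand, chr8:124909491-124909520 and chr8:124908707-124908736) matches the same seed. Bnip3 holds a site at chr7:138891806-138891835 and another at chr7:138891257-138891286 (minus strand). The pair in Hif1a (plus strand) lies at chr12:73946667-73946696 and chr12:73945996-73946025. The site in Pfkp (minus strand) lies at chr13:6581361-6581390.
Pfkfb3, miR-17 site: gctgtttgtttGCACTTTtccttctttctt
Pfkfb3, miR-19 site: ttggctgtttgTTTGCACttttccttcttt
Egln1, first miR-19 site: gaaagccagagTTTGCACagattgtgggta
Egln1, second miR-19 site: gaacagcccttTTTGCACgacaggcagggc
Bnip3, miR-19 site: gtccttgggtgTTTGCACtatgtgtgttaa
Bnip3, miR-18 site: ttttgttgcagGCACCTTtatcactctgct
Pfkp, miR-17 site: gttatttatcaGCACTTTatggaagcaagc
Hif1a, miR-17 site: tttggttttatGCACTTTgtcgctattaac
Hif1a, miR-18 site: tcatttaaaatGCACCTTtttatttattta
Hk2, Ddit4 and Ankrd37, lower by as much, held no match. A match is a stretch of letters and does not show that a microRNA acts there. The primary transcript of mir-17~92, Mir17hg, had 16 counts in each library, and Mcm7, the host of mir-106b~25, had 496 counts in TKO and 608 in WT. Neither count tells whether the microRNA stretch itself was deleted.

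Most of the set was lower in the TKO library. The amounts were small for the enzymes from Aldoa to Ldha and larger for a few genes, among them Pfkfb3 and the hexokinase gene Hk2. Of 33 measured genes 29 had a log2 ratio below 0, where 57.4% of all measured genes did. The set was chosen with earlier results of these data known, so shares set beside all genes, here and below, are descriptions only. A gene was called when its log2 ratio, computed with 0.5 CPM added to both levels, passed 1.5-fold and its counting interval excluded equality. By that rule 6 genes were lower in TKO (Pfkfb3, Hk2, Bnip3, Egln1, Ddit4 and Ankrd37) and 0 were higher, while 5.26% of measured genes were called lower and 2.83% higher. At 2-fold the count was 3 lower (Pfkfb3, Ddit4 and Ankrd37) and 0 higher, beside 1.68% and 1.02% of measured genes. Of these, Ddit4 (14 counts in TKO, 35 in WT) and Ankrd37 (5 counts in TKO, 21 in WT) rest on few reads. With the call set lower, at a log2 ratio of 0.32 on either side, the count was 14 lower and 0 higher, beside 11.4% and 6.61%. By the counting interval alone 26 were lower and 2 higher, Hk3 and Pfkp, and 5 could not be told from equality at this depth. The same held for 20.2% of measured genes on the lower side and 14.1% on the higher side. Abundant genes have narrow intervals, so the 18 members with a mean of at least 100 CPM were read against their own class. Of these, 16 had a ratio below equality, beyond counting error, where 31.9% of 2097 such genes did and 49.9% had a log2 ratio below 0. Of these 18 only Pfkfb3 and Hk2 were called at 1.5-fold, where 2.05% of the class were. The median log2 ratio was −0.27 over the 33 genes, against −0.04 over all measured genes and 0.0005 over the abundant class. Egln3, at 5 counts in TKO and 7 in WT, was not measured, and Ankrd37 passed the filter on low values only through its WT level.

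RNA of the glucose transporter Slc2a1 was slightly lower and the hexokinases differed among themselves. Glucose entry itself was not measured, and another transporter gene, Slc2a6, was 1.49-fold higher, as given below. Slc2a1 (gene 20525, chromosome 4, 119108745 to 119137330), the main glucose transporter of activated macrophages, had 63.4 FPKM in TKO and 74.5 FPKM in WT, 1.18-fold lower (1.10 to 1.253). Hexokinases trap glucose inside the cell by adding a phosphate. Hk2 (gene 15277, chromosome 6, 82725025 to 82774454), the inducible isoenzyme, had 1087 counts in TKO and 1980 in WT, or 18.0 FPKM in TKO and 33.0 FPKM in WT, and was 1.83-fold lower (1.70 to 1.98). Hk1, the widely expressed isoenzyme, had 34.8 FPKM in TKO and 38.5 FPKM in WT, 1.11-fold lower (1.035 to 1.19). Hk3, the isoenzyme of myeloid cells, went the other way with 49.0 FPKM in TKO and 40.3 FPKM in WT, 1.22-fold higher (1.13 to 1.31). The 3 intervals did not overlap one another. Per length, Hk2 made up 17.7% of hexokinase FPKM in TKO and 29.5% in WT, Hk3 made up 48.1% in TKO and 36.0% in WT, and Hk1 stayed at 34.2% in TKO and 34.5% in WT. Summed over all 3, hexokinase was 102 FPKM in TKO and 112 FPKM in WT. Gpi1, the isomerase of the next step, had 152 FPKM in TKO and 173 FPKM in WT, 1.14-fold lower (1.09 to 1.18).

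The control point of glycolysis held the farthest value among abundant members. Pfkfb3 (gene 170768, chromosome 2, 11471430 to 11554071) encodes the enzyme that makes the strongest activator of phosphofructokinase 1. It had 1239 counts in TKO and 3543 in WT, or 23.2 FPKM in TKO and 66.2 FPKM in WT, and was 2.88-fold lower (2.70 to 3.07). Pfkfb4, its relative with the same pair of opposing activities, was scarce, with 139 counts in TKO and 115 in WT, a ratio of 1.201 (0.931 to 1.55). Phosphofructokinase 1 itself, the enzyme these factors control, could not be told from equality as a whole. Its liver-type subunit Pfkl had 21.7 FPKM in TKO and 28.55 FPKM in WT, 1.32-fold lower (1.21 to 1.44). The platelet-type subunit Pfkp had 54.2 FPKM in TKO and 46.4 FPKM in WT, 1.17-fold higher (1.10 to 1.24). The muscle-type subunit Pfkm was minor, with 5.95 FPKM in TKO and 6.07 FPKM in WT, a ratio of 0.972 (0.790 to 1.197) whose side of equality turned with the scaling. Summed FPKM of the 3 subunits was 81.8 in TKO and 81.0 in WT, with a ratio of summed counts of 1.02 (0.970 to 1.07). Pfkp took 66.2% of that sum in TKO and 57.25% in WT.

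**Figure D1:**
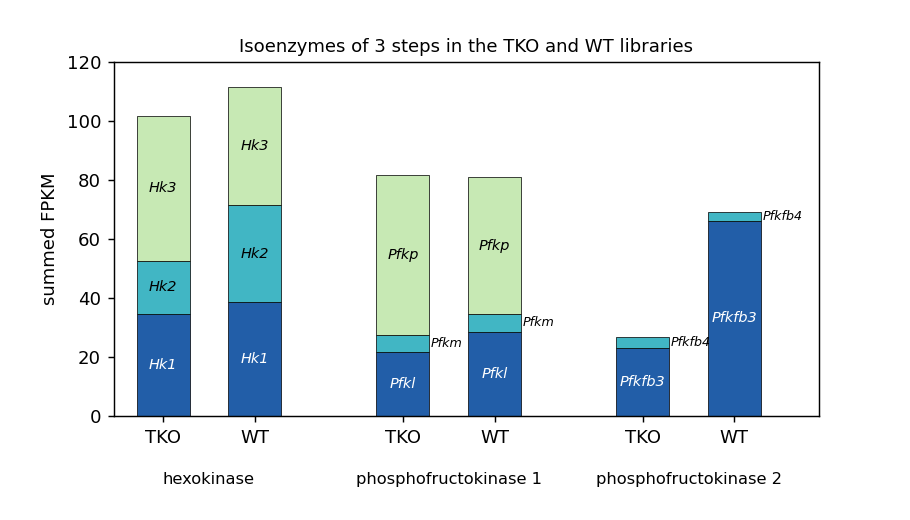
Summed FPKM of the isoenzymes of hexokinase, phosphofructokinase 1 and phosphofructokinase 2 in the TKO and WT libraries (stacked bars, 1 library each, no error bars). The phosphofructokinase 1 bars reach 81.8 FPKM in TKO and 81.0 FPKM in WT, while the phosphofructokinase 2 bars reach 26.9 FPKM in TKO and 69.4 FPKM in WT.

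With scaling by total count, the abundant enzymes from aldolase to lactate dehydrogenase were lower by 1.037-fold (Gapdh) to 1.32-fold (Ldha). All 8 had counting intervals below equality, none was called at 1.5-fold, and their log2 ratios ran from −0.41 to −0.05 with a median of −0.27. Aldoa, which splits the 6-carbon sugar, had 741 FPKM in TKO and 899 FPKM in WT, 1.21-fold lower (1.18 to 1.24). Its scarce relative Aldoc had 9.78 FPKM in TKO and 8.36 FPKM in WT, a ratio of 1.17 (0.982 to 1.39) that could not be told from equality at this depth with scaling by total count, and could with TMM or median-of-ratios scaling. Tpi1, which interconverts the triose phosphates, was 1.3-fold lower (1.23 to 1.37), with 132 FPKM in TKO and 171 FPKM in WT. Gapdh, the first oxidising step and a common reference gene, had 33809 counts in TKO and 34818 in WT and was only 1.037-fold lower (1.02 to 1.05). With TMM or median-of-ratios scaling its interval included equality. Pgk1, an ATP-producing kinase, had 270 FPKM in TKO and 325 FPKM in WT, 1.204-fold lower (1.16 to 1.249). Pgam1, the mutase, had 231 FPKM in TKO and 279 FPKM in WT, 1.21-fold lower (1.16 to 1.26). Eno1, which forms phosphoenolpyruvate, had 446 FPKM in TKO and 513 FPKM in WT, 1.15-fold lower (1.12 to 1.18). Pkm, pyruvate kinase, had 27172 counts in TKO and 31867 in WT, 1.18-fold lower (1.16 to 1.2). Ldha (gene 16828, chromosome 7, 46842274 to 46855627), which turns pyruvate into lactate, had 307 FPKM in TKO and 406 FPKM in WT, 1.32-fold lower (1.28 to 1.37). Ldha and Tpi1 were the lowest of this stretch and Gapdh the nearest to equality, and the interval of Gapdh overlapped none of the other 7. Reads of these genes can be divided with processed copies, but the copies were small. With the 4 Gapdh-like entries added, the Gapdh sum was 33839 counts in TKO and 34845 in WT, a ratio of 0.965 (0.9503 to 0.979). With Eno1b added the Eno1 ratio was 0.869 (0.845 to 0.894), and with Aldoart1 added the Aldoa ratio was 0.824 (0.804 to 0.844).

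The lactate exporter and a kinase that keeps pyruvate out of mitochondria were lower as well. Slc16a3 (gene 80879, chromosome 11, 120948484 to 120959000), the lactate exporter of glycolytic cells, had 43.0 FPKM in TKO and 61.2 FPKM in WT, 1.42-fold lower (1.32 to 1.54). Pdk1, the kinase that shuts pyruvate dehydrogenase and so keeps pyruvate in the cytosol, had 229 counts in TKO and 317 in WT, 1.39-fold lower (1.17 to 1.66). Step by step on the FPKM scale, the difference between libraries was largest for phosphofructokinase 2 (log2 −1.36 for the summed isoenzymes). Lactate export followed at −0.51, lactate dehydrogenase at −0.41 and triose phosphate isomerase at −0.38. Phosphofructokinase 1 (0.02) and Gapdh (−0.03) were nearest to equality. All 20 genes together took 1.08% of counts in TKO and 1.254% in WT, 1.16-fold lower (1.15 to 1.17).

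**Figure D2:**
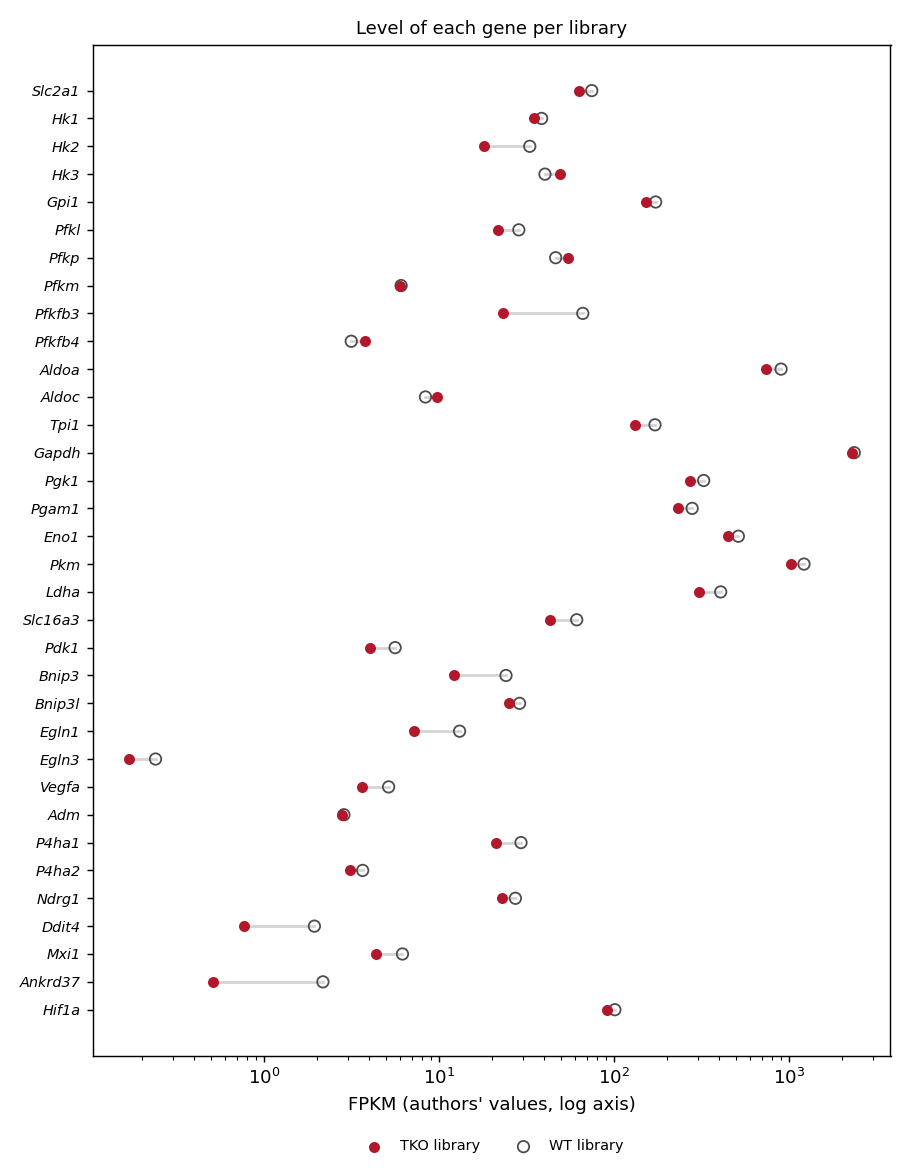
FPKM of each gene in the TKO library (filled points) and the WT library (open circles) on a log axis, 1 library per genotype. Levels run from Egln3, at 0.17 FPKM in TKO and 0.24 FPKM in WT, to Gapdh, at 2301 FPKM in TKO and 2355 FPKM in WT, and the long grey links are those of Pfkfb3, Hk2, Bnip3, Egln1, Ddit4 and Ankrd37.

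Outside glycolysis, Hif1a itself differed little and its targets differed more. Hif1a (gene 15251, chromosome 12, 73901324 to 73947554) had 4688 counts in TKO and 5101 in WT, 1.10-fold lower (1.05 to 1.14). HIF-1 alpha is controlled mainly as a protein, which these libraries do not measure. Of the 12 measured targets all 12 were below equality, 10 of them beyond counting error and 4 at 1.5-fold, with a median log2 ratio of −0.48. Over all measured genes these shares were 57.4%, 20.2% and 5.26%, with a median of −0.04. Their scarcity widens the intervals: 1 of the 12, P4ha1, reached a mean of 100 CPM. Of the 4 called, Ankrd37 (5 counts in TKO, 21 in WT) passed the filter on low values only through its WT level. For such a gene the filter itself favours a lower value in TKO. Ddit4, also among the 4, rests on 14 counts in TKO and 35 in WT. Both drop out, with Adm and P4ha2, at a mean of at least 10 CPM, where the median was also −0.48.

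The mitophagy receptors split between a larger and a smaller difference, and of the oxygen-sensing hydroxylases in the set only Egln1 could be compared. Bnip3 (gene 12176, chromosome 7, 138890836 to 138909506), which tags mitochondria for removal, had 232 counts in TKO and 454 in WT, 1.97-fold lower (1.68 to 2.32). Its relative Bnip3l had 887 counts in TKO and 1010 in WT, 1.15-fold lower (1.05 to 1.26). Egln1 (gene 112405, chromosome 8, 124908587 to 124949254), the main hydroxylase that marks HIF-1 alpha, had 275 counts in TKO and 500 in WT, 1.83-fold lower (1.58 to 2.13). Egln3, another such hydroxylase, was too scarce to compare, at a ratio of 0.71 (0.178 to 2.60). Among secreted factors, Vegfa, the angiogenic growth factor, had 134 counts in TKO and 190 in WT, 1.43-fold lower (1.14 to 1.79). Adm, the vasodilator adrenomedullin, had 41 counts in TKO and 42 in WT, a ratio of 0.97 (0.615 to 1.53) whose sign turned with median-of-ratios scaling.

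The remaining targets were lower by 1.2-fold to 4.2-fold, with wide intervals for the scarce ones. P4ha1, a collagen prolyl hydroxylase, had 941 counts in TKO and 1290 in WT, 1.38-fold lower (1.27 to 1.503), and P4ha2 had 76 counts in TKO and 90 in WT, with an interval that included equality. Both act on collagen, and most of the stromal markers described above were lower in the same library. The part of stromal RNA in the P4ha1 and P4ha2 values was not tested. Ndrg1, a stress-responsive gene, had 720 counts in TKO and 858 in WT, 1.2-fold lower (1.09 to 1.33). Mxi1, which encodes an antagonist of MYC, had 240 counts in TKO and 338 in WT, 1.42-fold lower (1.198 to 1.68). Ddit4, which encodes an inhibitor of mTORC1, had 14 counts in TKO and 35 in WT, 2.52-fold lower (1.32 to 5.06). Ankrd37, an established HIF target of unclear role, had 5 counts in TKO and 21 in WT, 4.23-fold lower (1.55 to 14.35). The last 2 rest on few reads, and neither passed a filter at a mean of 10 CPM.

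As groups, the glycolysis genes had a median log2 ratio of −0.24 and the other HIF targets −0.48, a difference of 0.25. That difference was 0.22 to 0.25 under every scaling, pseudocount, filter and unit tried. It is a description of 20 and 12 genes in 1 pair of libraries, with no test, since genes are not replicates. Both groups spread widely. Within glycolysis Pfkfb3, Hk2 and Slc16a3 were farther from equality than the median of the other targets. Within those targets, Bnip3l and Adm were closer to it than Tpi1 and Ldha. By summed counts the glycolysis genes were 1.16-fold lower, and the other targets 1.36-fold lower (1.31 to 1.42), at 351 CPM in TKO and 479 CPM in WT. The order of the groups depends on which targets are listed. A separate list of 25 measured HIF targets, given below, had a median of −0.19, nearer to equality than the glycolysis genes. In that list 19 genes were below 0 and 6 above.

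Promoter sequence was read for the core letters to which HIF binds, ACGTG and GCGTG, on both strands (so also CACGT and CACGC). The windows were the 250 bases before transcript starts in RefSeq (GRCm38.p6). Not each annotated start had a window: Ldha begins at 46842274, and its windows end at 46845803 and 46847081. Of 48 windows from 32 of the 34 genes, 39 held a core, a share of 81.25%, against 55.6% of 11868 windows of measured genes and 38.6% of all windows. The ACGTG form alone was in 52.1% of the windows, against 21.7% for measured genes. Many of these genes were put in the set as known HIF targets, and windows of 1 gene can overlap. The palindrome CACGTG, a wider E-box that contains the core and is also read by MYC-type factors, was in 5 of the 48 windows, or 10.4%, against 8.33% for measured genes. Of the 32 genes, 2 had no core in any window, Gpi1 and Tpi1. Shown are the windows of the 4 called genes that average 10 CPM or more, with core letters in capitals, all read from the minus strand. They lie at chr2:11553930-11554179 and chr2:11502091-11502340 (both Pfkfb3), chr6:82774455-82774704 (Hk2), chr7:138909507-138909756 (Bnip3) and chr8:124949255-124949504 (Egln1).
Pfkfb3, upstream start: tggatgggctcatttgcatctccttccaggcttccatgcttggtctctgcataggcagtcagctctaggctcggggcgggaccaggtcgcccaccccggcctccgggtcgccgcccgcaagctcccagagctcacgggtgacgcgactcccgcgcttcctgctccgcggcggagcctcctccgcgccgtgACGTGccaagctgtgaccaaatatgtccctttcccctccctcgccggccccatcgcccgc
Pfkfb3, downstream start: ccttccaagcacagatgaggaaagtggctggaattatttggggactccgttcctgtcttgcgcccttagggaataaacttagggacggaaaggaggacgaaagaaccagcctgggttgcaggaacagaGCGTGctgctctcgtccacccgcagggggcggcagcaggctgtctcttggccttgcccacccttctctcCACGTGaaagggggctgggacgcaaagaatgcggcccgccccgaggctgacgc
Hk2: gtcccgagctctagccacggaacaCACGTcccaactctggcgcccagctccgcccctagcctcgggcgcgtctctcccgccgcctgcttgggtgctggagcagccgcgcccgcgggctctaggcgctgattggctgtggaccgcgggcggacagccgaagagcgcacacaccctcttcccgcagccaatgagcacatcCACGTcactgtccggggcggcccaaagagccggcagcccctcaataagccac
Bnip3: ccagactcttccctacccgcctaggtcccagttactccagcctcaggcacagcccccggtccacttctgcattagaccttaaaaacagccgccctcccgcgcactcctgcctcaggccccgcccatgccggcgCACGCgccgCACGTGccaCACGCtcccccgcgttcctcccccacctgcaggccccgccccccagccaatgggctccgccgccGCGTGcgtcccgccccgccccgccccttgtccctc
Egln1: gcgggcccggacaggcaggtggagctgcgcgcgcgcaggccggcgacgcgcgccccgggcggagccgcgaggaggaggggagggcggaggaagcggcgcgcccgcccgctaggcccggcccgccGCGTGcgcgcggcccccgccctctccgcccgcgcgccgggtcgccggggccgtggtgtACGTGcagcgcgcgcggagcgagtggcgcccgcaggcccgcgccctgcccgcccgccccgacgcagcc
The Bnip3 window holds 4 separate core stretches and those of Hk2 and Egln1 hold 2 each. A match of letters is not a binding site, and no binding was measured.

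Genes around the pathway were read from lists of 96 further genes, of which 83 were measured. Among them 7 were called lower at 1.5-fold and 0 higher, beside the 5.26% and 2.83% of all measured genes, and the median log2 ratio was −0.10. Further HIF targets held 5 of the 7, out of 25 measured, with a median of −0.19, and by the counting interval alone 13 of the list were lower and 2 higher. Plod2, a collagen lysyl hydroxylase, was 2.45-fold lower (1.78 to 3.42), with 55 counts in TKO and 134 in WT. Ak4, a mitochondrial adenylate kinase, was 2.05-fold lower (1.71 to 2.48), with 173 counts in TKO and 353 in WT. Nfil3, a transcription factor gene, was 1.70-fold lower (1.44 to 2.02), and Mif, a macrophage cytokine, was 1.59-fold lower (1.44 to 1.75). The 2 higher ones were Cited2, an inhibitor of HIF action (1.31-fold, 1.24 to 1.37), and the haem oxygenase gene Hmox1 (1.11-fold, 1.06 to 1.16), both picked for their values. Plod2 is also made by stromal cells, and the part of stromal RNA in its value was not tested.

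Few genes were called in the lists of further HIF regulators and of pathways that branch from glycolysis. Of 12 measured HIF regulators, a list that does not hold Egln1, 0 were called, with a median of −0.07. The 1 beyond counting error was Hif1an, a hydroxylase that blocks HIF activity, at 526 counts in TKO and 374 in WT, 1.397-fold higher (1.22 to 1.60). It lies outside the naming rule and was picked for its value. Of 8 pentose phosphate genes, whose pathway makes NADPH from glucose phosphate, H6pd was called lower (1.52-fold, 1.37 to 1.70). The cytosolic enzymes G6pdx and Pgd were 1.12-fold (1.06 to 1.18) and 1.12-fold (1.08 to 1.16) higher, also picked for their values, and the median was −0.03. Of 9 measured glycogen genes, Gys1, the glycogen synthase, was called lower (1.73-fold, 1.37 to 2.19), with 118 counts in TKO and 203 in WT, and the median was −0.06. Of 11 measured pyruvate oxidation genes 0 were called (median −0.08), and of 3 measured gluconeogenesis genes 0 were called (median −0.31, the scarce Pck2, Pcx and G6pc3). Of 15 other transporters and isoforms of glycolysis 0 were called, with a median of −0.10. The transporter gene Slc2a6, again picked for its value, had 335 FPKM in TKO and 224.9 FPKM in WT. It was 1.49-fold higher (1.44 to 1.54) and stood above Slc2a1 in both libraries on the FPKM scale. Bsg, the chaperone of lactate exporters, could not be told from equality at a ratio 1.05-fold lower (0.998 to 1.11).

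**Figure D3:**
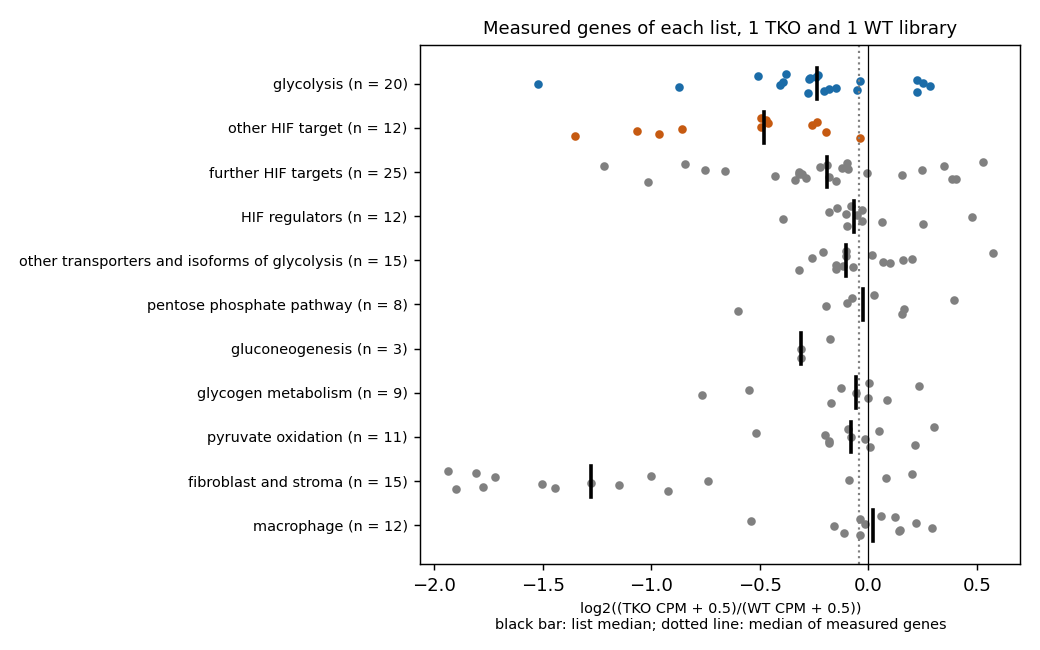
Log2 ratio, TKO over WT with 0.5 CPM added, of each measured gene (points) by list, with the list median (black bar) and the median of all measured genes (dotted line at −0.04), 1 library per genotype. The glycolysis, other HIF target and further HIF target lists have medians of −0.24, −0.48 and −0.19. The pentose phosphate genes and the HIF regulators have medians of −0.03 and −0.07, and the stromal markers have a median of −1.28.

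The authors' deposited table holds its own comparison of the pair, by a test not given in the sources used here. Of the 33 measured genes, 26 had an adjusted value of at most 0.05 in the authors' deposited table and were lower in TKO. Another 2, Hk3 and Pfkp, were higher at that value. The authors' deposited table gave the same on the lower side for 14.7% of measured genes and on the higher side for 10.5%. Such a test on the reads of 2 libraries compares those libraries and not the genotypes.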

How the data were processed

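The deposited table holds 16219 entries with, per the file headers, an estimated count and an FPKM value for each of the 2 libraries. Per the submitters' processing notes, the tools were HISAT2 2.0.4, Bowtie2 2.2.5 and RSEM 1.2.12 and the build was mm10. Gene annotation, read filters and strandedness are not given in the sources used here. In FPKM, the authors wrote 0.01 for 0. The authors' deposited log2 ratio is that of TKO FPKM over WT FPKM, as recomputed here. The authors' deposited p-value was not used, and their adjusted value, which passes 1, was treated as a score.

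The entry without a symbol (1 count in each library, 9.23e-06% of TKO counts and 9.29e-06% of WT counts) was left out. Counts were rounded. Total counts were 10836855 (TKO) and 10764519 (WT), so the floor of 3 counts is 0.277 CPM in TKO and 0.279 CPM in WT. Intervals are 95% exact conditional binomial and cover counting error only, since reads without molecular identifiers are not independent molecules. With 1 library each no test was run. A gene was called at 1.5-fold on log2((TKO CPM + 0.5)/(WT CPM + 0.5)) with an interval that excludes equality, which understates differences of scarce genes. The calling step was tested on simulated data that held counting error only. With no spread between libraries simulated, it could not test whether a call would recur in other libraries. Named genes were all 34 members, the called genes of the further lists (1 is not reported here), the leading or called markers, near copies of members and the hosts of the deleted clusters. Of the called stromal markers only Col1a1 is named. Further uncalled genes were named after their values were seen. Among them were Slc2a6, Hif1an, Cited2, Hmox1, G6pdx, Pgd, Bsg and 3 gluconeogenesis genes. Among the markers these were Ptgs2, Cxcl10, Il6, Tnf, Il1b, Pdgfrb, Thy1 and Pdgfra. Members and lists were chosen with earlier results of these data known. Gene positions, promoters and microRNAs came from RefSeq (GRCm38.p6, all 34 matched by gene identifier, 32 for promoters) and 3' UTRs from GENCODE M21 (all 34). Python 3.11.15, scipy 1.17.1, R 4.3.3 and edgeR 4.0.16 (TMM factors only) were used.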

Additional observations from a re-analysis of the deposited data

How the results depend on the processing

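The count of genes called lower was 6 under TMM scaling, median-of-ratios scaling, the authors' FPKM, pseudocounts of 0.1 and 2 CPM, no filter, and counts left unrounded, and 0 were called higher under each of these. Under those settings 3.48% (pseudocount 2 CPM) to 5.54% (pseudocount 0.1 CPM) of all measured genes were called lower. The share called higher ran from 2.14% (pseudocount 2 CPM) to 3.28% (median-of-ratios scaling). The count of members called lower was 4 with a mean of at least 10 CPM, since Ddit4 and Ankrd37 then drop out. Beside it stood 3.11% of all genes that passed that filter. With a 2-fold call it was 3, beside 1.68%, and with a call at a log2 ratio of 0.32 it was 14, beside 11.4%. The median log2 ratio of the measured genes ran from −0.27 to −0.22, that of the glycolysis genes from −0.24 to −0.19 and that of the other HIF targets from −0.49 to −0.44. Over 34 genes and 8 settings, 260 of 267 values kept their call and stayed within their counting interval. The other 7 belonged to Aldoa, Gapdh, Eno1 and Pkm, under TMM or median-of-ratios scaling, which add 0.04 and 0.05 to log2 ratios, and none changed sign. Pfkm (0.0007 and 0.0044) and, with median of ratios, Adm (0.0006) changed sign within their intervals. No paired analysis was possible because each genotype had 1 library. With 1 library each, what depth limits is the scarce genes: Egln3, Adm, P4ha2, Pfkfb4, Pfkm and Aldoc could not be told from equality with scaling by total count.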
